A study of Homo sapiens with 6 samples.

Results

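The genes described here are 9 enzymes that make or use glutamate: GLUD1, GLUD2, GLS2, GLUL, GOT1, GOT2, GPT2, ASNS and GAD1. They were taken by symbol from a table of 24976 distinct gene symbols, and all 9 were found. The table was made from RNA of LN229, a human glioblastoma cell line. In 3 libraries GDH1, the product of GLUD1, had been knocked down for 24 h with small interfering RNA (siRNA) and lipofectamine 3000. The other 3 were controls whose genotype label is WT, in the same medium with fetal bovine serum. Titles of the controls read NC and the protocol names an NC mixture, but the labels do not say what it was, whether control cells met the lipid reagent, or which siRNA was used. All cells were of 1 line. The 3 cultures of each group are described as biological replicates, and p-values measure the spread between these cultures.

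Glutamate is the main amino donor of the cell and the link between amino acids and the tricarboxylic acid cycle. Glutaminases release it from glutamine, and glutamine synthetase makes glutamine from it again. Glutamate dehydrogenase and the aminotransferases turn it into 2-oxoglutarate, the dehydrogenase releasing ammonia and the aminotransferases passing the amino group on to make aspartate or alanine. Asparagine synthetase uses glutamine as its nitrogen source, and glutamate decarboxylase makes the transmitter GABA. Glioma cells are known for high glutamine use and for exporting glutamate.

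Library totals were 33355207 to 35619614 counts in the knockdown and 31201100 to 34452724 in the controls. Of 15638 symbols with enough counts to test, 2037 were higher and 2048 lower in the knockdown (13.0% and 13.1%, or 26.1% in all) at an adjusted p under 0.05. The groups did not overlap for 42.0% of the tested symbols, 21.6% higher and 20.5% lower. The number called ranged from 2216 to 6236 when 1 library was left out. It was lowest when control 1 (2216), control 3 (2230) or knockdown 2 (2325) was left out, and highest when knockdown 1 was left out (6236). Fold changes also moved with the GC content of the transcripts. The median log2 fold change was 0.15 in the lowest of 5 GC bins and -0.28 in the highest. Of the 7 enzyme genes tested, GLUD1, GLUL, GOT2, ASNS and GAD1 lay in the middle bin (46.1 to 52.2% GC), while GOT1 and GPT2 lay in the next one (52.2 to 58.8%). Most of the glioma and astrocyte list was VIM. It averaged 4584 CPM (counts scaled to a fixed library total) in the knockdown and 3958 CPM in controls. The whole list summed to 6170 to 7090 CPM in the knockdown and 5810 to 5990 CPM in controls. Of its 10 tested genes, VIM, CD44, SOX2 and EGFR were higher (log2 fold changes 0.21, 0.44, 0.78 and 0.40), S100B and OLIG2 were lower (-1.13 and -1.10) and 4 did not pass, while the astrocyte markers GFAP, SLC1A3, SLC1A2, AQP4 and ALDH1L1 were each under 1 CPM on average in both groups. The oligodendrocyte list summed to 259 to 329 CPM in the knockdown and 436 to 478 CPM in controls, and 3 of its 5 genes were lower, among them MAG. The neuron list summed to 40.1 to 50.4 CPM in the knockdown against 51.4 to 54.9 CPM in controls, with GAD2, SLC32A1 and STMN2 at 0. The leukocyte list summed to 26.8 to 29.6 CPM in the knockdown against 13.8 to 17.1 CPM in controls. Nearly all of it was CD68, its 1 tested gene, at 27.6 ± 1.36 CPM in the knockdown and 15.0 ± 1.74 CPM in controls (mean ± SD, n = 3 each), with the defining leukocyte marker PTPRC at 0.28 CPM in the knockdown and 0.10 CPM in controls on average. Endothelial genes summed to 2 to 2.55 CPM in the knockdown against 2.32 to 3.23 CPM in controls, with CDH5 at 0. Epithelial ones summed to 35.6 to 44.8 CPM in the knockdown against 44.1 to 46.3 CPM in controls, with CDH1 at 0. What share these markers have in the results below was not tested. In RNA from whole cultures, fewer cells of a state and less RNA per cell cannot be told apart.

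The promoter of ASNS is shown first, because ASNS had the largest fold change among the tested enzymes other than the target and because the elements through which amino acid shortage acts on it are known. ATF4, the transcription factor made when amino acids run short, binds nutrient-sensing response element 1 of this promoter. The sequence is from RefSeq (GRCh38.p14, chr7:97872359-97872658, minus strand), from 250 bases before an annotated start of the gene to 50 after it. This start lies inside the full annotated span of ASNS given below, and the table's other ASNS window (chr7:97872116-97872415) holds none of the elements searched. Capitals mark element 1 (TGATGAAAC, from -68 to -60) and element 2 (GTTACA, from -48 to -43).
ASNS: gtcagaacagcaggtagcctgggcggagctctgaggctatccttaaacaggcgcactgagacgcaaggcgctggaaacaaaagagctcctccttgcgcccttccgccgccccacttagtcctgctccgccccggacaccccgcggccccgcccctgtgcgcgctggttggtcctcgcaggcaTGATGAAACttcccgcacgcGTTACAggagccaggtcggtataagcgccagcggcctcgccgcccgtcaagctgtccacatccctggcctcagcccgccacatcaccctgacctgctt

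A search of both strands for the shorter ATF4 element TGATGNAA, which element 1 of ASNS also holds, found it in 3.62% of 35116 RefSeq promoter windows of this length. Element 1 itself was in 0.225% of the windows and element 2 in 6.66%. Of the 8 enzymes with a promoter in the table, ASNS and GOT1 held TGATGNAA. Counts of genes cannot be set against the shares of windows, because some genes have several windows (BCAT1 has 5). In the wider lists of glutamate-linked genes described below, 65 of 82 genes had a promoter window. Among them 5 held the element, namely ASNS, BCAT1, CHAC1, GOT1 and SLC25A11. The 30 bases around it are printed so that their flanks can be compared, with the element in capitals and read 5′ to 3′ in its own direction.
ASNS (chr7:97872458-97872487, minus strand): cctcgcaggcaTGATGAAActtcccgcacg
BCAT1 (chr12:24949131-24949160, minus strand): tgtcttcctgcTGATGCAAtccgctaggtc
CHAC1 (chr15:40953251-40953280, minus strand): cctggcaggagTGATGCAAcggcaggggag
GOT1 (chr10:99430804-99430833, plus strand): gctgccgagaaTGATGCAAccaatgcaatt
SLC25A11 (chr17:4940099-4940128, plus strand): aaggaggagctTGATGGAAgcgtgcgagaa
The first 3 of these genes were lower in the knockdown. ASNS had a log2 fold change of -1.31, BCAT1 of -1.09 and CHAC1 of -2.30. Of all tested symbols 13.1% were lower, and of the tested list genes other than the 9 enzymes 32.3%. Those lists were chosen with earlier results of these data known. GOT1 (-0.18) and SLC25A11 (-0.08) did not pass the test, and SLC25A11 was above 0 with the GC trend removed (0.06) and without control replicate 1 (0.006). PHGDH, PSAT1, TRIB3 and SESN2 were lower too, and their promoter windows held no TGATGNAA. The same was true of GLUD1, ABAT, ALDH5A1, ALDH9A1, NAT8L, OAT, ALDH4A1, FPGS, NADSYN1 and ATF4. A match in a window is a description of its letters and not a measured binding site.

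Taken per transcript length, the enzymes spanned a wide range of levels. In knockdown cells GOT2 was the most abundant of the 9, at 173 ± 5.73 TPM (counts scaled by transcript length and then to a fixed library total), followed by ASNS at 86.6 ± 6.74 TPM and GOT1 at 48.1 ± 4.46 TPM. Next came GLUL at 38.4 ± 3.15, GAD1 at 27.5 ± 1.94, GPT2 at 23.9 ± 1.4 and GLUD1 at 22.7 ± 3.58 TPM (mean ± SD, n = 3 each), and GPT2 and GLUD1 differed by less than their spread. In control cells ASNS led at 216 ± 24.7 TPM, followed by GOT2 at 134 ± 5.92, GLUD1 at 80.2 ± 1.68, GOT1 at 55 ± 1.99, GLUL at 39.7 ± 0.83, GAD1 at 32.3 ± 2.36 and GPT2 at 29.1 ± 1.51 TPM. The control libraries of neighbours in this order did not overlap, apart from those of GAD1 and GPT2. With the mean length of all reference transcripts of a gene in place of its principal one, GAD1 (43.2 TPM) stood above GLUL (39.8 TPM) in controls and the rest of the order was kept. The order in knockdown cells was not checked with that length, and may depend on the transcript chosen. GLUD2 averaged 0.0849 TPM in knockdown and 0.53 TPM in control cells, and GLS2 0.0708 TPM in knockdown and 0.0969 TPM in control cells.

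**Figure D1:**
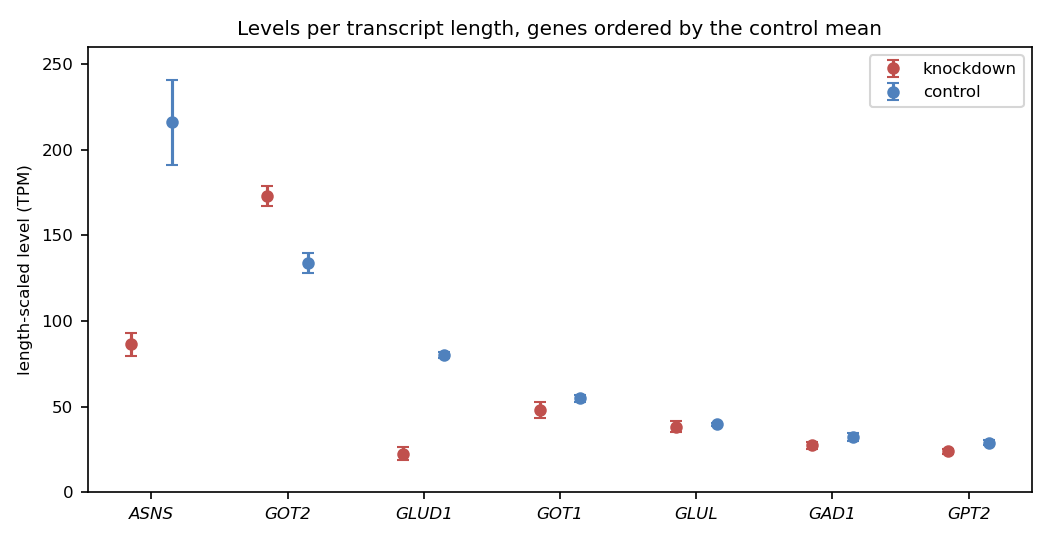
Length-scaled level (TPM, linear axis) of the 7 enzyme genes with more than traces of RNA, as mean and SD of 3 knockdown (red) and 3 control (blue) libraries, ordered by the control mean. ASNS and GLUD1 are far lower in the knockdown, at 86.6 and 22.7 TPM, and GOT2 is higher at 173 TPM.

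Of the 7 enzymes with enough counts to test, 1 was higher (GOT2), 3 were lower (GLUD1, ASNS and GPT2) and 3 did not pass (GLUL, GOT1 and GAD1), where 26.1% of all tested symbols were called. Groups did not overlap for 6 of the 7, against 42.0% of all tested symbols. The median log2 fold change of the 7 was -0.22, and that of all tested symbols was -0.003. GLUD1 is in these counts as the target of the siRNA.

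**Figure D2:**
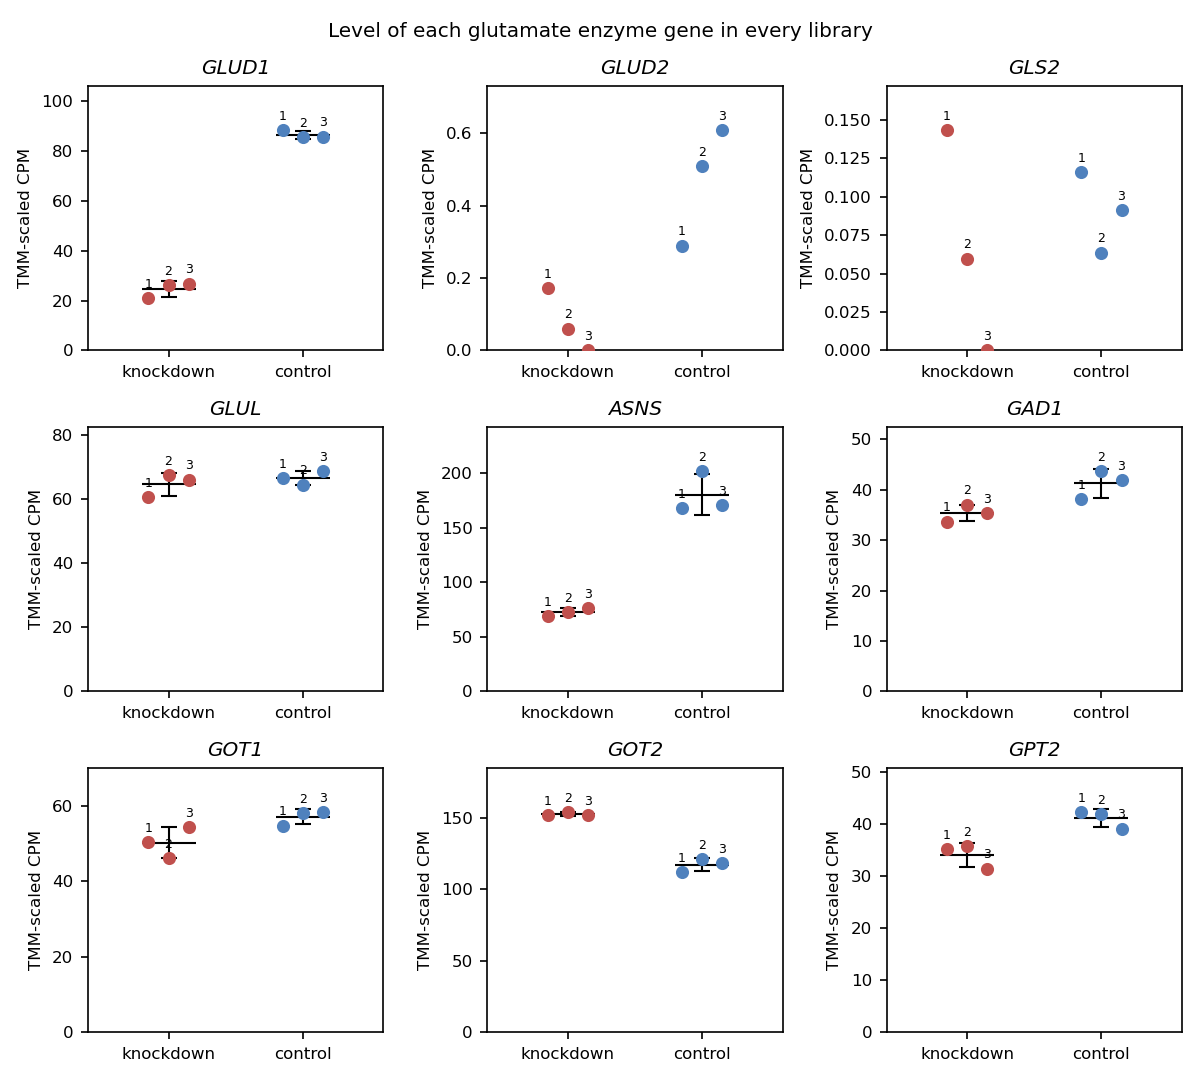
Level of each of the 9 enzyme genes in every library (CPM, axes starting at 0), with knockdown in red, control in blue and the replicate number beside each point. Black lines give the mean and SD of 3 libraries, left out for GLUD2 and GLS2, which had at most 20 counts in every library. Groups are apart for all but GLS2 and GLUL.

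GLUD1 encodes the mitochondrial glutamate dehydrogenase and lies on chromosome 10 (87050202 to 87094843, GRCh38.p14). It had 20.9, 26.2 and 26.7 CPM in knockdown libraries 1 to 3, against 88.3, 85.5 and 85.7 CPM in control libraries 1 to 3. Every knockdown library was thus far below every control, and knockdown library 1 was the lowest. The mean left was 28.4% of the control mean, a log2 fold change of -1.82 with a standard error (SE) of 0.10 (95% interval -2.03 to -1.60, adjusted p = 7.46e-07, edgeR). Among 15638 tested symbols, GLUD1 ranked 12 by p and had the rank 51 from the most negative fold change. The knockdown libraries varied more around their mean (coefficient of variation 13.1%) than the controls (1.83%). SHLD2, a DNA repair gene that overlaps 371 bases of GLUD1 at this locus, had 939, 1076 and 1223 counts in the knockdown and 1048, 1170 and 1037 counts in controls, so those groups overlapped.

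GLUD2 encodes a second glutamate dehydrogenase, which arose by retroposition of GLUD1 in apes and is known from brain and testis. It lies on chromosome X (121047610 to 121050094) and has 2 rows in the table. Summed over both rows it had 6, 2 and 0 counts in the knockdown libraries and 10, 16 and 20 counts in the controls. The groups did not overlap, but the gene fell under the filter on low counts and was not tested in the filtered fit to all 6 libraries. Without that filter the log2 fold change was -2.54 (SE 0.92, adjusted p = 0.0516, edgeR). Of the 50-base windows of the GLUD1 reference transcript, 25.8% occur letter for letter in GLUD2. Reads that lie wholly within such stretches cannot be assigned to 1 gene by sequence. Relative to the sum of both genes, GLUD2 made up 0.819%, 0.228% and 0% in the knockdown libraries, where the last allows up to 0.322% (3 counts of the total). In control libraries 1 to 3 it made up 0.327%, 0.591% and 0.706%. The exact (Clopper-Pearson) 95% binomial intervals were 0.301 to 1.77%, 0.0276 to 0.819% and 0 to 0.395% in knockdown libraries 1 to 3, against 0.157 to 0.601%, 0.338 to 0.959% and 0.432 to 1.09% in control libraries 1 to 3, and they cover counting error only. The interval of knockdown library 3 lay below that of control library 3, while knockdown library 1 had the highest share of all 6, so the shares of the groups overlapped.

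GLS2, the liver-type glutaminase (chromosome 12, 56470952 to 56488161), had 5, 2 and 0 counts in the knockdown libraries and 4, 2 and 3 counts in the controls. Both groups sat at a handful of reads in libraries of 31201100 or more, and the gene was under the filter on low counts. Without that filter the log2 fold change was -0.40 (SE 1.65, adjusted p = 0.904, edgeR).

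GLUL, glutamine synthetase, runs the reverse reaction and lies on chromosome 1 (182378098 to 182391790). It had 60.7, 67.4 and 66.1 CPM in the knockdown libraries and 66.5, 64.5 and 68.8 CPM in the controls. The groups overlapped, with knockdown library 1 lowest and control library 3 highest. The log2 fold change was -0.04 (SE 0.08, 95% interval -0.21 to 0.13, adjusted p = 0.732, edgeR), and it was 0.007 without knockdown replicate 1. Changes of a size within that interval were not excluded by these libraries.

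ASNS makes asparagine from aspartate, with glutamine as the amino donor, and lies on chromosome 7 (97851677 to 97928441). It had 69.2, 72.8 and 76.4 CPM in the knockdown libraries, against 167.8, 202.0 and 170.9 CPM in the controls. Knockdown libraries lay close together and all far below the controls, among which library 2 stood highest. The mean left was 40.4% of the control mean, at a log2 fold change of -1.31 (SE 0.09, 95% interval -1.50 to -1.12, adjusted p = 1.96e-06, edgeR). Its rank was 36 by p and 180 from the most negative fold change. The call held in all 16 alternatives tried, with fold changes of -1.38 to -1.21. Both ASNS and GLUL use or make glutamine, and their difference was itself compared. The log2 ratio of ASNS to GLUL counts was 0.17 ± 0.05 in the knockdown and 1.43 ± 0.19 in controls (SD, n = 3 each), and an exact permutation test gave a two-sided p of 0.1, the lowest that 3 libraries against 3 can give.

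GOT1 and GOT2 are the cytosolic and the mitochondrial aspartate aminotransferase, which exchange amino groups between glutamate and aspartate and work with the malate dehydrogenases in the malate-aspartate shuttle. GOT2 (chromosome 16, 58707131 to 58734316) was the only one of the 9 that rose. It had 151.8, 154.1 and 151.9 CPM in the knockdown libraries and 112.2, 121.2 and 118.3 CPM in the controls. The 3 knockdown values were nearly alike (coefficient of variation 0.83%) and all above the controls. GOT2 reached 130% of the control mean, a log2 fold change of 0.38 (SE 0.07, 95% interval 0.23 to 0.53, adjusted p = 0.00181, edgeR). Its call also held in all 16 alternatives, between 0.35 and 0.41. GOT1 (chromosome 10, 99396870 to 99430624) had 50.3, 46.2 and 54.3 CPM in the knockdown and 54.8, 58.1 and 58.3 CPM in controls. Its groups did not overlap, but the highest knockdown library came close to the lowest control. The log2 fold change was -0.18 (SE 0.08, 95% interval -0.37 to 0.00) and did not pass (adjusted p = 0.132, edgeR), nor did it in any of the 16 alternatives (adjusted p 0.0576 to 0.423). Set against each other within a library, GOT2 had 3.02, 3.34 and 2.80 times the counts of GOT1 in the knockdown and 2.05, 2.09 and 2.03 times in controls. The ratio was higher in all 3 knockdown libraries, by 0.57 on the log2 scale (exact permutation test, two-sided, p = 0.1, again the lowest it can give). Of the 7 shuttle genes tested, GOT2 was higher and 6 did not pass (1 was lower with the GC trend removed), and the malate dehydrogenase gene MDH2 was at 262.6 ± 36.9 CPM in the knockdown and 267.1 ± 10.5 CPM in controls.

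GPT2, the mitochondrial alanine aminotransferase (chromosome 16, 46884362 to 46931289), moves the amino group of glutamate to pyruvate. It had 35.2, 35.8 and 31.4 CPM in the knockdown libraries and 42.3, 42.0 and 39.1 CPM in the controls. Library 3 was the lowest in each group, and the groups did not overlap. GPT2 fell by 0.27 on the log2 scale (SE 0.09, 95% interval -0.46 to -0.08), to 82.9% of the control mean, with an adjusted p of 0.0412 (edgeR). That call was lost when the trend over GC content and length was removed (-0.13, adjusted p = 0.139). It was also lost without any 1 library other than knockdown replicate 1, at -0.31 to -0.21, with adjusted p of 0.155, 0.126 and 0.0863 without control replicates 1 to 3 and of 0.0821 and 0.109 without knockdown replicates 2 and 3. GPT, the cytosolic isozyme, had only 37, 38 and 33 counts in the knockdown and 75, 43 and 78 in controls. Control library 2 lay close to the knockdown libraries. GPT passed at -0.91 (adjusted p = 0.0415, edgeR) but not with the GC trend removed (-0.54, adjusted p = 0.187). Its p also missed the threshold with limma-voom (-0.88) and when control 1 (-0.83), control 3 (-0.76), knockdown 2 (-0.98) or knockdown 3 (-0.84) was left out.

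GAD1 encodes the larger isoform of glutamate decarboxylase, a marker of inhibitory neurons, and lies on chromosome 2 (170813210 to 170861151). It had 33.7, 37.0 and 35.4 CPM in the knockdown libraries and 38.2, 43.7 and 41.9 CPM in the controls. Knockdown libraries were all below the controls, the nearest being knockdown library 2 and control library 1. The log2 fold change was -0.22 (SE 0.09, 95% interval -0.41 to -0.03), which did not pass after adjustment over all genes (adjusted p = 0.0847, edgeR). With the GC and length trend removed it did (-0.29, adjusted p = 0.00145). GAD1 RNA stood beside 0 counts in every library of GAD2, the other decarboxylase, and of SLC32A1, which loads GABA into vesicles.

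**Figure D3:**
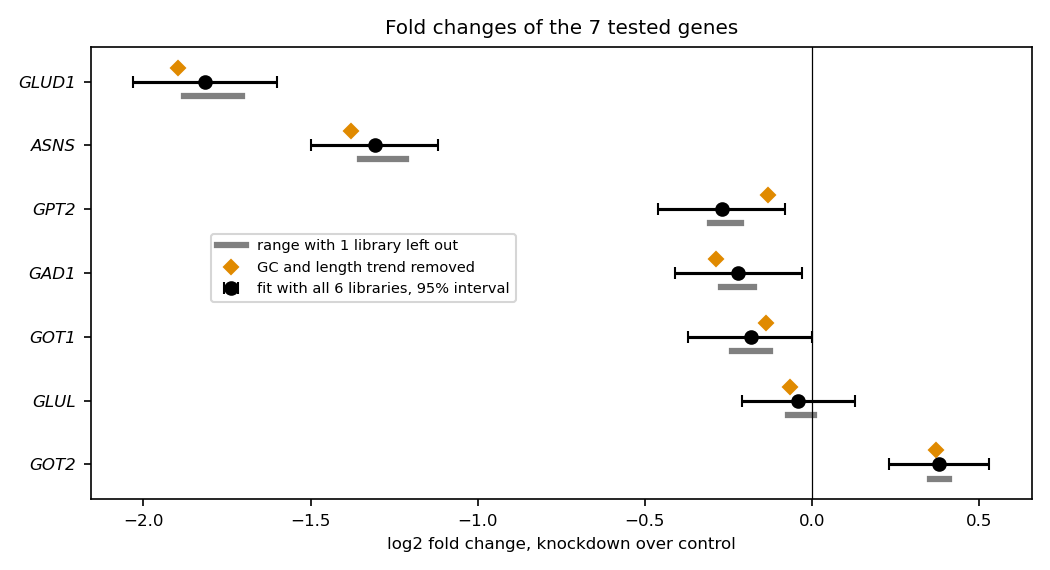
Log2 fold change (knockdown over control) of the 7 tested enzyme genes. Black points and bars give the fit to all 6 libraries with its 95% interval, grey bars the range with 1 library left out and orange diamonds the fit with the GC and length trend removed. GLUD1, ASNS, GOT2, GPT2 and GAD1 keep their side of 0 in all of these, but GPT2 shrinks to -0.13 and GAD1 grows to -0.29 with that trend removed.

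Around these enzymes, 11 lists of glutamate-linked genes held 73 further genes, of which 65 were tested. Of those 65, 6 were higher and 21 lower, or 9.23% and 32.3%, where 13.0% and 13.1% of all tested symbols were higher and lower. Their median log2 fold change was -0.05. All of the lists were chosen with earlier results of these data known, so these shares describe the lists and are no test. Counting the 9 enzymes in, the lists had 7 genes higher and 24 lower. The number lower was 15 without knockdown replicate 2, and 15 to 27 with any 1 library left out. Some genes, such as ABAT and PSAT1, are in more than 1 list, so the counts per list below overlap. Each is to be read beside the 13.0% and 13.1% of all tested symbols.

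Aminotransferases that use glutamate were mostly lower where they differed. Of 12 tested, 6 were lower, 1 (GOT2) was higher and 5 did not pass, with a median of -0.25. BCAT1, the cytosolic branched-chain aminotransferase, was at 14.9 ± 1.01 CPM in the knockdown and 31.7 ± 2.53 CPM in controls (-1.09, SE 0.10, adjusted p = 2.04e-05, edgeR). PSAT1, which gives the amino group of glutamate to the serine pathway, was at 104.6 ± 7.96 CPM in the knockdown against 189.5 ± 19.0 CPM in controls (-0.86). ABAT, which breaks GABA down, was at 11.2 ± 0.47 CPM in the knockdown against 20.0 ± 0.752 CPM in controls (-0.83). Each of these 3 kept its call in all 16 alternatives. Leaving out control 3 or knockdown 2 left 3 aminotransferases lower, and removing the GC trend left 4.

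ALDH5A1 and ALDH9A1, of the list for GABA synthesis and breakdown, went the same way as ABAT. ALDH5A1, which oxidises succinic semialdehyde, fell by 0.71 on the log2 scale (9.03 ± 0.689 CPM in the knockdown, 14.8 ± 0.841 CPM in controls), and ALDH9A1, an aminobutyraldehyde dehydrogenase, fell by 0.30. Of 4 tested genes of the GABA list these 3 were lower and GAD1 did not pass, at a list median of -0.51. ALDH9A1 did not pass when control 1 (-0.30), control 2 (-0.25) or knockdown 2 (-0.28) was left out, and each of these fits left the list with 2 lower.

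Proline and ornithine enzymes, which lead to and from glutamate semialdehyde, were lower in 5 of 6 tested, with a median of -0.50. PYCR1, a mitochondrial enzyme of the last step of proline synthesis, was at 55.9 ± 7.81 CPM in the knockdown and 105.3 ± 7.88 CPM in controls (-0.91, SE 0.10, adjusted p = 9.06e-05, edgeR). ALDH4A1, which completes proline breakdown, fell by 0.66 on the log2 scale, PYCR3 by 0.51 and OAT, ornithine aminotransferase, by 0.26. ALDH18A1, which makes the semialdehyde from glutamate, did not pass (123.1 ± 2.66 CPM in the knockdown, 117.7 ± 2.6 CPM in controls). Over all 16 alternatives ALDH4A1 ranged over -0.87 to -0.44, PYCR3 over -0.72 to -0.22 and OAT over -0.39 to -0.20. Leaving out control 1 left 3 genes of the proline list lower, and leaving out control 3 or knockdown 2 left 2. ALDH4A1 lost its call in 3 of these fits with 1 library left out (-0.67 to -0.56), PYCR3 in 4 (-0.53 to -0.38) and OAT in 3 (-0.29 to -0.21).

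Among 10 glutamine amidotransferases, which take the amide nitrogen of glutamine as ASNS does, 2 were higher and 2 lower, with a median of 0.04. GFPT2, an entry enzyme of the hexosamine pathway, was at 12.6 ± 1.14 CPM in the knockdown and 6.56 ± 0.397 CPM in controls (0.94, SE 0.13, adjusted p = 3.61e-04, edgeR), and its relative GFPT1 rose by 0.28. NADSYN1, which completes NAD synthesis, fell by 0.38 on the log2 scale beside ASNS. Leaving out control 1, control 3 or knockdown 2 ended the calls of GFPT1 (0.26 to 0.28) and NADSYN1 (-0.37 to -0.35) with folds of about the same size, so that 1 gene was higher and 1 lower. With the GC trend removed 3 were higher. The nucleotide enzymes PPAT, PFAS, CAD, CTPS1 and CTPS2 had log2 fold changes between -0.04 and 0.04 and GMPS 0.17, and none passed.

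Glutamate conjugation was mixed. GCLM, the modifier subunit of the enzyme that opens glutathione synthesis, was at 104.3 ± 8.3 CPM in the knockdown and 74.3 ± 0.204 CPM in controls (0.49, SE 0.08, adjusted p = 9.37e-04, edgeR). RIMKLA, which joins N-acetylaspartate to glutamate, rose by 1.35 at a low level (4.80 ± 1.24 CPM in the knockdown, 1.88 ± 0.438 CPM in controls). OPLAH, which frees glutamate from 5-oxoproline, fell by 1.14 on the log2 scale, and FPGS, which adds glutamate to folates, by 0.50. The other 6 of the 10 tested did not pass, at a list median of 0.09, and 1 was lower when control 1, control 3 or knockdown 2 was left out.

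In the asparagine and aspartate list, ASNS and NAT8L, which makes N-acetylaspartate, were lower and the other 7 tested genes did not pass. NAT8L was at 3.75 ± 0.74 CPM in the knockdown and 8.03 ± 0.457 CPM in controls (-1.10, SE 0.18, adjusted p = 0.00101, edgeR). With the GC trend removed, 4 of the list were lower. ASS1, which condenses aspartate with citrulline, had 0 counts in every library.

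Genes of proteins that regulate or feed glutamate dehydrogenase did not pass. Of the tested regulators SIRT3, SIRT4, SIRT5 and HADH, 0 were called, and HADH, whose product inhibits the dehydrogenase, was at 50.6 ± 0.827 CPM in the knockdown and 50.9 ± 1.6 CPM in controls. None of the 4 mitochondrial glutamate carriers passed. SLC25A13, the most abundant of them and an aspartate-glutamate carrier, was at 68.6 ± 4.15 CPM in the knockdown and 72.8 ± 1.03 CPM in controls (-0.09, adjusted p = 0.442, edgeR). With the GC trend removed it did pass (-0.19, adjusted p = 0.00416), and then 1 carrier was higher and 1 lower.

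ASNS also belongs to the amino acid response genes, a list chosen, like the others, with earlier results of these data known. Of 11 tested, 8 were lower, 2 (EIF2AK4 and VLDLR) were higher and 1 (DDIT3) did not pass, with a median of -0.79. CHAC1, a glutathione-degrading enzyme, was at 3.52 ± 0.945 CPM in the knockdown and 17.4 ± 1.82 CPM in controls (-2.30). PHGDH, the first enzyme of serine synthesis, was at 160.5 ± 19.5 CPM in the knockdown against 330.8 ± 12.6 CPM in controls (-1.04). Beside PSAT1, ASNS and ATF4, the others lower were TRIB3, a pseudokinase (-1.01), SESN2, a stress-induced regulator of mTORC1 (-0.79), and SLC7A11, the cystine-glutamate exchanger (-0.66). ATF4 itself was at 307.4 ± 20.3 CPM in the knockdown against 375.1 ± 3.63 CPM in controls, or -0.29 on the log2 scale (adjusted p = 0.00899, SE 0.07, edgeR), and lost its call without control replicate 3 (adjusted p = 0.0536) or knockdown replicate 2 (adjusted p = 0.0617). EIF2AK4, the kinase that senses uncharged tRNA, was the other way at 0.24. Its call ended when control 1, control 3 or knockdown 2 was left out, so that VLDLR, a lipoprotein receptor, was the 1 higher.

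**Figure D4:**
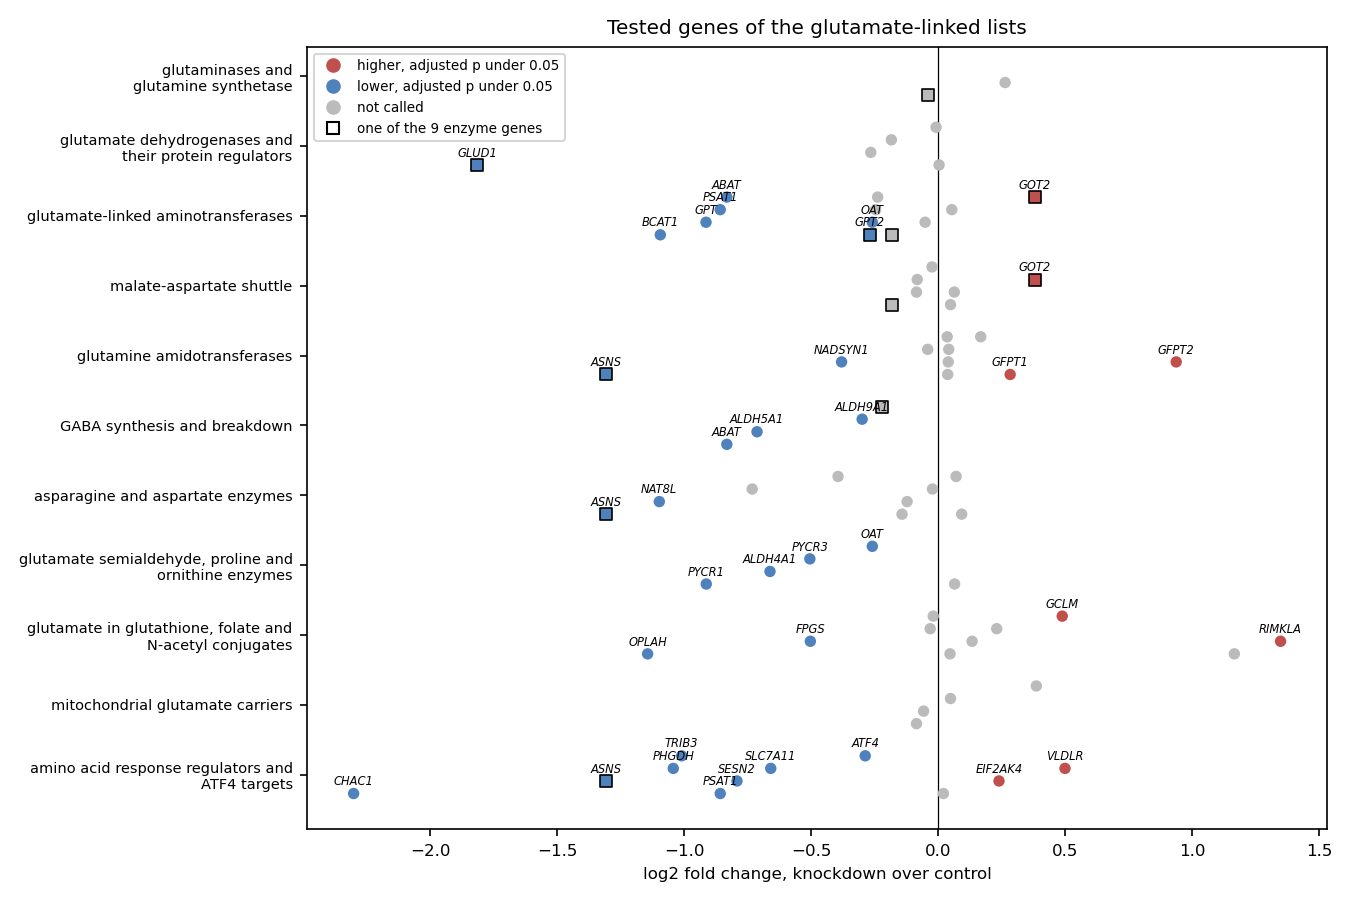
Log2 fold change (knockdown over control) of tested genes of the 11 glutamate-linked lists, 1 row per list (2 tested genes are not drawn), with vertical offsets for legibility only. Red marks genes that were higher and blue genes that were lower at an adjusted p under 0.05, grey the rest, and squares those of the 9 enzyme genes that were tested. All called proline and GABA genes drawn lie left of 0, and GFPT2 and RIMKLA are the farthest to the right among the called genes.

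The genes nearest to GLUD1 in pattern were sought among 10237 named symbols whose mean log2 CPM was 3 or more, by the root mean square difference in log2 CPM over the 6 libraries, each gene taken relative to its control mean. The nearest were SPRY4, a feedback inhibitor of receptor tyrosine kinases (difference 0.12), HMGCS1, an enzyme of the mevalonate pathway (0.12), the homeobox gene TLX1 (0.17), LGI4, a secreted glial protein (0.21), and CBS, cystathionine beta-synthase (0.24), whose reads cannot be told from its near-identical copy CBSL. Relative to the control mean, GLUD1 stood at -2.05, -1.72 and -1.69 in knockdown libraries 1 to 3 on the log2 scale. HMGCS1 showed the same order of the libraries, at -1.86, -1.64 and -1.51, while SPRY4 was level at -1.89, -1.86 and -1.89. This likeness over 6 libraries in 2 groups says nothing of shared control.

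**Figure D5:**
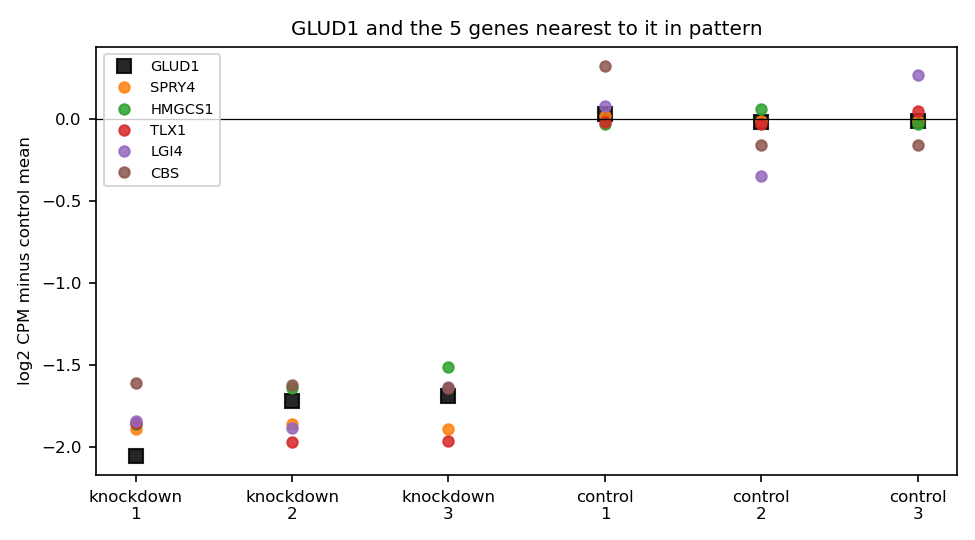
Log2 CPM minus the mean of the control libraries for GLUD1 (black squares) and the 5 genes nearest to it in pattern, in each of the 3 knockdown and 3 control libraries. All 6 genes lie between -2.05 and -1.51 in the knockdown libraries.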

How the data were processed

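RNA of 6 LN229 cultures was measured, and the deposited table gives whole-number counts per gene row, not normalized by the authors as far as the values show. The build is GRCh38.p14, per the submitters' processing notes, while aligner, counter and strand use: not given in the sources used here. Groups came from genotype labels and replicate numbers from titles. Rows of 1 symbol were summed (28196 rows, 1634 symbols with several rows), which differs from testing rows singly. Low symbols were removed with filterByExpr (minimum count 10), libraries scaled by trimmed mean of M values, and groups compared with edgeR 4.0.16 (quasi-likelihood F-test, robust, two-sided, R 4.3.3) with Benjamini-Hochberg adjustment over 15638 symbols and a threshold of 0.05, after a check on simulated data. SE is the log2 fold change over the root of F. CPM are scaled counts, and a prior count of 2 entered log2 CPM. TPM used GENCODE principal transcripts. The 4956 unnamed new loci (1.20 to 1.30% of counts) stayed in. Replicates differed by more than sampling noise (chi-square per degree of freedom 6.86 to 39). Totals of 31201100 to 35619614 counts set the precision. Alternatives were relative log expression or upper quartile scaling, DESeq2 1.42.0, no filter or a minimum of 1 CPM in 3 libraries, a replicate block, limma-voom (limma 3.58.1), each library left out, the highest row of a symbol, an adjusted p under 0.01, and a loess trend (span 0.5) over GC content and transcript length removed per library.

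Genes and lists were chosen with earlier results of these data known. Outside the 9 enzymes, up to 3 called genes with the smallest p per list are named, or the most abundant where none passed. The 5 genes nearest to GLUD1 and the most abundant or absent markers are also named. GPT, OAT, PYCR3, FPGS, ALDH18A1, TRIB3, SESN2, SLC7A11, ATF4, EIF2AK4, VLDLR, DDIT3, SLC25A11, ASS1 and the genes listed by name only were added after their values were seen. Some genes that the rule names are not reported here.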

Additional observations from a re-analysis of the deposited data

How the results depend on the processing

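GLUD1, ASNS and GOT2 kept their direction and call in all 16 alternatives, at log2 fold changes of -1.90 to -1.71, -1.38 to -1.21 and 0.35 to 0.41. The call of GPT2 ended with the GC and length trend removed (-0.132, also -0.132 with the replicate block) and ranged over -0.306 to -0.212 with 1 library left out. GAD1 passed with that trend removed (-0.286, and -0.285 with the block). Over all 16 alternatives FPGS ranged over -0.695 to -0.211, NADSYN1 over -0.448 to -0.195 and GFPT1 over 0.16 to 0.328. Values near 0 changed sign: GLUL lay between -0.072 and 0.007, HADH between -0.03 and 0.01, MDH2 between -0.14 and 0.05 and SLC25A11 between -0.164 and 0.006 with 1 library left out, HADH was 0.003 with upper quartile scaling, and SLC25A11 was 0.06 with the GC trend removed (0.062 with the block). The causes were not tested. With 1 library left out, 2216 to 6236 symbols were called (1161 to 2978 higher, 1053 to 3258 lower), and 15 to 27 of the list genes were lower. At an adjusted p under 0.01, 1990 symbols were called, 1013 higher and 977 lower. GLUD2 and GLS2 were below the filter. Without a filter GLUD2 was at -2.54 (adjusted p = 0.0516, edgeR) and GLS2 at -0.40 (adjusted p = 0.904). GLUD2 was tested in each fit with 1 library left out. It was called only without knockdown replicate 1 (adjusted p = 0.00631, edgeR), which made 5 of the 9 enzymes called. That library held 6 counts of GLUD2, against 2 and 0 in knockdown libraries 2 and 3. Adjusted p was 0.0544, 0.0902 and 0.131 without control replicates 1 to 3, and 0.116 and 0.0762 without knockdown replicates 2 and 3.

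Same-numbered libraries correlated at 0.369, 0.098 and -0.113 in their deviations from the group means (10598 genes). Knockdown 3 correlated best with control 2 (0.472), the others with their own number. Deviations within a group depend on each other, so these values cannot decide whether libraries were paired. The replicate block called 4791 symbols in place of 4085 and changed no call among the 9 enzymes (GOT2 0.381, ASNS -1.304, GPT2 -0.271). Depth limits GLUD2 and GLS2, at 0 to 20 counts a library.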
